A study of Mus musculus with 18 samples.

Results

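The CCT chaperonin, also called TRiC, was followed through the 8 genes that encode its subunits, Tcp1, Cct2, Cct3, Cct4, Cct5, Cct6a, Cct7 and Cct8. They were taken by gene symbol from the 20683 genes of the count table, in which they hold 24 of 58476 feature entries, and from the harringtonine position lists, in which they hold 48 of 9025 positions. The cells were erythroblasts, precursors of red blood cells, from mouse fetal liver. All groups shared the strain FVB/n x C57BL/6, the genotype Trp53 -/- and culture with erythropoietin at 0.5 U/ml, dexamethasone at 1 nM and a 1% supernatant containing stem cell factor. Cells given tunicamycin, an inhibitor of N-glycosylation that stresses the endoplasmic reticulum, at 2.5 ug/ml for 1.5 h were compared with untreated cells. Each treatment had 3 libraries of total RNA, 3 of ribosome footprints after cycloheximide (100 ug/ml for 5 min, ribosomes frozen in place) and 3 of footprints after harringtonine (2 ug/ml, ribosomes held at start sites), 18 libraries in 6 groups. The comparisons ask how the stress, which leads to phosphorylated eIF2, changes mRNA levels, ribosome traffic and start site use.

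CCT is a barrel of paired rings in the cytosol, each built from the same set of related but distinct subunits, which closes over newly made proteins and folds them with ATP. Actin and tubulin are its best known clients, prefoldin hands them over, and tubulin cofactors assemble the folded tubulin. Every ring needs every subunit, so the relative output of the 8 genes was of interest. In yeast, the subunits CCT1, CCT2, CCT4 and CCT5 bind ATP more readily than CCT3, CCT6, CCT7 and CCT8, and the genes are described in that order.

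Library totals ran from 12883350 to 48992797 RNA reads, 5028087 to 7155889 footprints on annotated features and 446561 to 648169 reads at kept harringtonine positions. Markers of erythroid cells were present, all 10 at 5 CPM (reads scaled to the library total) of RNA or more, with sums of 5291 to 5638 CPM under tunicamycin and 5289 to 5536 CPM untreated. No marker of macrophages (2 of 6 at 0), hepatocytes (2 of 5 at 0), neutrophils and monocytes (2 of 5 at 0), or endothelium and stroma (0 of 4 at 0) reached 5 CPM. Of the megakaryocyte and mast cell markers 2 of 4 each did, and the megakaryocyte sums were 104 to 117 CPM under tunicamycin and 122 to 132 CPM untreated, without overlap. By edgeR, coding footprints of the megakaryocyte gene Gp5 fell by 0.41 ± 0.10 (SE), those of the hepatocyte gene Apoa1, at 1.47 CPM of RNA, rose by 1.08 ± 0.24 and those of the erythroid gene Slc4a1 rose by 0.37 ± 0.09 on the log2 scale, and the part of such cells in the results was not tested. Trp53 RNA was present in every library (98.6 to 121 CPM under tunicamycin, 108 to 124 CPM untreated), and a count for the whole gene cannot show its deleted stretch.

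The genes lie on 8 chromosomes, here by RefSeq gene spans in GRCm38.p6. Tcp1 spans chr17:12916329-12925067 and Cct2 chr10:117050997-117063852. Cct4 spans chr11:22990593-23003336 and Cct5 chr15:31590800-31601846. Cct3 spans chr3:88297135-88321766 and Cct6a chr5:129787356-129846443, and Cct7 spans chr6:85451505-85468477 and Cct8 chr16:87483325-87495869. Harringtonine positions of Cct2, Cct5 and Cct8 were on the reverse strand and those of the other 5 genes on the forward strand. Neighbours overlap 4 of the spans, namely Mrpl18 (1459 nt) and Acat3 (1238 nt) that of Tcp1, Psph (88 nt) that of Cct6a, Pradc1 (483 nt) that of Cct7 and Usp16 (191 nt) that of Cct8, besides snoRNA genes inside Tcp1 and Cct6a. The sources used here do not state how strand entered the counting, so counts in the shared stretches cannot be told apart.

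RefSeq promoter sequences (GRCm38.p6) were at hand for 7 of the 8 genes, and the 30 bases around each gene start are shown because the subunit RNAs lay on the same side of 0 in the RNA comparison. Capitals mark the bases from the gene start onward, written 5′ to 3′ on the strand of the gene.
Tcp1, chr17:12916314-12916343, forward strand: gcagccccctacttcCGGCGTTTTCAGTTT
Cct2, chr10:117063838-117063867, reverse strand: ccggcccagcccgccACGCAGGAGGCGGAA
Cct5, chr15:31601832-31601861, reverse strand: gcgtaaaaaaagtcaCTGTTGAAAAGTAAG
Cct3, chr3:88297120-88297149, forward strand: gttagcaggtttctgTGTCATTCCTGAGGA
Cct6a, chr5:129787341-129787370, forward strand: ctgtgggcacgccggGGGCGGGCCGGGTGC
Cct7, chr6:85451490-85451519, forward strand: tgcggtgggcggctcGCGGGGTTGCGCGGG
Cct8, chr16:87495855-87495884, reverse strand: cggcgccgaggcccaTTCCCAGCAGGCAGT
None of the 7 annotated starts had the pattern of a C followed by 4 pyrimidines, the opening of a TOP mRNA, which 2.51% of all 32851 promoter windows had. In the windows of 250 bases before to 50 after the gene start, searched on both strands, the GC box GGGCGG was found in 7 of 7, against 35.7% of all windows, and CCAAT in 4 of 7 (Tcp1, Cct3, Cct6a and Cct7), against 37.4%. TATAAA was found in 0 of 7, against 13.6% of all windows, and GAANNTTC, the core letters of a heat shock element, in 0 of 7, against 7.86%. With the windows of further annotated starts, 9 windows in all, GGGCGG was in 8, CCAAT in 4, TATAAA in 0 and GAANNTTC in 1. Each motif was searched by itself, so matches of GGGCGG and CCAAT may overlap, and a match or its absence describes this window and not a site.

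RNA levels of the subunits were slightly higher under tunicamycin and close together in the size of the difference, but no subunit passed the test. The 8 genes together made up 5942, 6081 and 6033 CPM in the tunicamycin libraries, against 5549, 5557 and 5583 CPM in the untreated libraries, and the treatments did not overlap. In 7 of the 8 genes, all but Cct7, each tunicamycin library was above each untreated library. Of the 9982 genes averaging 1 CPM or more, 8.73% were higher and 9.65% lower in this way. In bulk RNA, fewer cells of a type and less RNA per cell cannot be told apart.

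Tcp1, the alpha subunit, was at 1051, 1102 and 1084 CPM of RNA under tunicamycin, against 998, 1033 and 988 CPM untreated. Cct2, the beta subunit, was at 932, 968 and 945 CPM under tunicamycin, against 908, 906 and 819 CPM untreated. Cct4, the delta subunit, was at 458, 460 and 463 CPM under tunicamycin, against 406, 391 and 421 CPM untreated. The 3 genes had no overlap between treatments, and the lowest Cct2 value, in untreated replicate 3, stood well below the other 2 untreated libraries. Cct5, the epsilon subunit, was at 848, 859 and 819 CPM under tunicamycin, against 774, 772 and 814 CPM untreated. Its replicate 3 libraries of both treatments nearly met.

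Cct3, the gamma subunit, was at 765, 795 and 798 CPM of RNA under tunicamycin, against 735, 752 and 748 CPM untreated. Cct6a, the zeta subunit, was at 698, 659 and 681 CPM under tunicamycin, against 626, 585 and 633 CPM untreated. Cct8, the theta subunit, was at 880, 899 and 900 CPM under tunicamycin, against 805, 798 and 840 CPM untreated. All 3 were higher in every tunicamycin library. Cct7, the eta subunit, was at 310, 341 and 344 CPM under tunicamycin, against 297, 320 and 319 CPM untreated, and its tunicamycin replicate 1 lay within the untreated range.

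By edgeR's quasi-likelihood test on all genes, 0 of the 8 subunits passed in RNA at an adjusted p under 0.05, as against 0.15% of the 10643 genes tested. At an unadjusted p under 0.05 there were 3 (Cct4, Cct6a and Cct8), as against 12.4% of all genes, and DESeq2 passed 0, as against 2% of the genes it tested. With the replicate block edgeR also passed 0, as against 3.85% of all genes. The log2 changes ran from 0.09 ± 0.06 (SE) for Cct3 to 0.19 ± 0.06 for Cct4, the subunit with the smallest adjusted p (0.282). The median of the members was 0.11, beside -0.005 over all genes tested. The SD of the 8 changes was 0.03, beside 0.17 over all genes. All genes include some with few reads and large SEs, such as Cct6b (0.34), while the subunits had SEs of 0.06 to 0.07. The 2 SDs are thus not matched for read depth, and their difference is no measure of co-ordination. The scaling sets the typical gene near 0, so a change common to all mRNAs could not be seen.

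**Figure D1:**
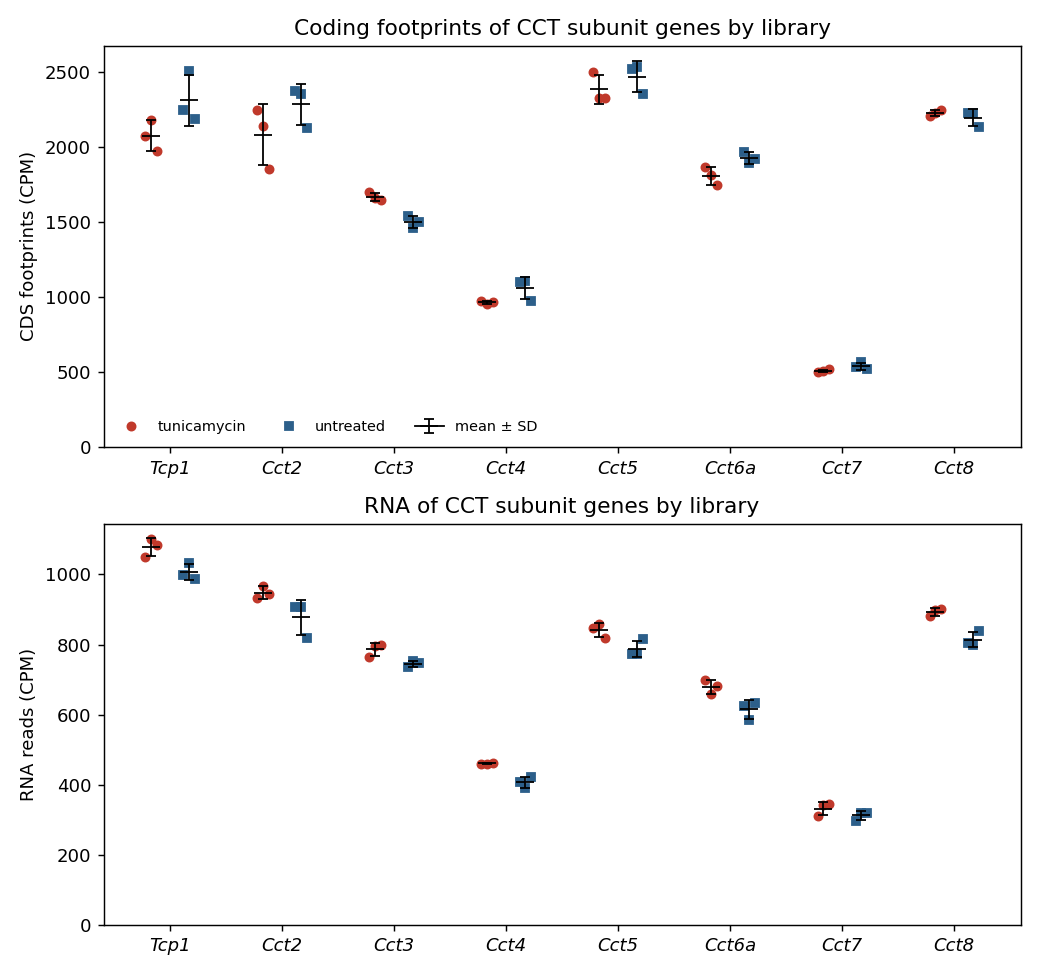
Coding footprints (upper panel) and RNA (lower panel) of each subunit gene in CPM, with 3 tunicamycin libraries (red circles) left of 3 untreated libraries (blue squares) and the mean ± SD in black. RNA is higher in every tunicamycin library for all genes but Cct7, while coding footprints are lower without overlap for Tcp1, Cct4, Cct6a and Cct7 and higher for Cct3. Levels are not divided by length, so they are read within a gene.

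Coding footprints, which show how much ribosome traffic each mRNA carried, did not share the direction of RNA in most subunits. No subunit passed the test in either assay. Summed over the 8 genes, footprints were at 14064, 13815 and 13286 CPM under tunicamycin, against 14508, 14651 and 13712 CPM untreated, and the treatments overlapped. Without overlap, 4 subunits were lower (Tcp1, Cct4, Cct6a and Cct7) and Cct3 alone of the 8 was higher. Of the 9562 genes averaging 1 CPM or more, 11.7% were lower and 10% higher in this way. The counts behind these values were 2287 to 16759 coding reads per gene and library.

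Tcp1 had 2073, 2180 and 1973 CPM of coding footprints under tunicamycin, against 2247, 2507 and 2187 CPM untreated. Cct2 had 2247, 2143 and 1857 CPM under tunicamycin, against 2371, 2353 and 2129 CPM untreated. Tcp1 did not overlap between treatments, and Cct2 did, through tunicamycin replicates 1 and 2. Cct4 had 971, 955 and 969 CPM under tunicamycin, against 1098, 1108 and 976 CPM untreated. Cct5 had 2498, 2329 and 2329 CPM under tunicamycin, against 2519, 2537 and 2352 CPM untreated. The separation of Cct4 was narrow, because untreated replicate 3 lay just above tunicamycin replicate 1, and Cct5 overlapped.

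Cct3 had 1699, 1662 and 1645 CPM of coding footprints under tunicamycin, against 1541, 1459 and 1501 CPM untreated, and every tunicamycin library was higher. Cct6a had 1865, 1817 and 1747 CPM under tunicamycin, against 1968, 1893 and 1919 CPM untreated. Cct7 had 503, 505 and 517 CPM under tunicamycin, against 535, 564 and 517 CPM untreated, with tunicamycin replicate 3 and untreated replicate 3 nearly level. Both were lower in every tunicamycin library. Cct8 had 2207, 2224 and 2249 CPM under tunicamycin, against 2227, 2229 and 2131 CPM untreated, and overlapped.

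In coding footprints 0 of the 8 subunits passed edgeR's test, as against 2.58% of 9265 genes tested. At an unadjusted p under 0.05 there were also 0, as against 16.6% of all genes, and DESeq2 passed 0, as against 3.03% of the genes it tested. The log2 changes ran from -0.15 ± 0.09 (SE) for Tcp1 to 0.17 ± 0.08 for Cct3, whose edgeR adjusted p of 0.316 was the smallest. Their median was -0.08, beside 0.002 over all genes, and 6 of the 8 values were below 0. Without single libraries this median ranged from -0.11 without untreated replicate 3 to -0.05 without tunicamycin replicate 3, and the value of Tcp1 was -0.08 without untreated replicate 2. The SD of the members was 0.10, beside 0.27 over all genes tested, again without matching for read depth. The value of Cct8 (0.03 ± 0.08) turned to -0.01 without untreated replicate 3.

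The balance within the complex was described by each subunit's share of the summed reads of the 8 genes. Cct3 took 12.08%, 12.03% and 12.38% under tunicamycin, against 10.62%, 9.96% and 10.95% untreated. Cct8 took 15.7%, 16.1% and 16.9% under tunicamycin, against 15.4%, 15.2% and 15.5% untreated. For both genes the share was higher in every tunicamycin library, and the shares of the other 6 subunits overlapped. Set over the same 8-gene sum, 13.4% of the 9562 genes were higher and 6.84% lower without overlap. In RNA the share of Cct3 was lower without overlap, at 12.88%, 13.08% and 13.22% under tunicamycin against 13.24%, 13.54% and 13.40% untreated. That of Cct4 was higher without overlap, at 7.71%, 7.56% and 7.67% under tunicamycin against 7.32%, 7.03% and 7.55% untreated. Over the 8-gene RNA sum, 1.35% of the 9982 genes were higher and 31.9% lower without overlap. Percentages set over the 8-gene sum shift with that sum. The RNA sum was itself higher in every tunicamycin library, so these percentages cannot weigh the RNA shares of Cct3 and Cct4. Shares of a fixed sum are not independent of each other, and no test was run on them. Shares are not divided by coding length, so they describe a gene between treatments and not the amounts of the subunits.

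Translational efficiency, coding footprints relative to RNA, was below 0 on the log2 scale for 7 of the 8 subunits, with Cct3 on the other side. The changes were -0.31 ± 0.10 (SE) for Cct4, -0.25 ± 0.10 for Tcp1, -0.24 ± 0.12 for Cct2 and -0.14 ± 0.10 for Cct5. They were -0.23 ± 0.09 for Cct6a, -0.17 ± 0.10 for Cct7, -0.11 ± 0.09 for Cct8 and 0.08 ± 0.09 for Cct3. The median was -0.20, beside -0.01 over all genes, of which 51.6% had a value below 0. These values combine the RNA and footprint libraries described above and are no separate measurement.

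In translational efficiency 0 of the 8 subunits passed edgeR's interaction test over 12 libraries, as against 1.4% of the 9218 genes tested. At an unadjusted p under 0.05 there were 3 (Tcp1, Cct4 and Cct6a), as against 15.5% of all genes. Cct4 had the smallest edgeR adjusted p, 0.130. With the replicate number as a block edgeR passed 3, Tcp1 (adjusted p = 0.0314), Cct2 (0.0409) and Cct4 (0.0302), as against 9.0% of all genes. Deviations of same-numbered libraries correlated in both assays, but weakly for footprint replicate 2 (0.0944), and RNA replicate 3 (0.192) was not a clear pair. DESeq2 passed Cct4 alone (adjusted p = 0.0466), as against 4.38% of the genes it tested. Without untreated footprint replicate 3 edgeR passed Cct4 (adjusted p = 0.0300), as against 2.7% of all genes. In that library the footprints of Cct4 were lowest of the untreated 3. By comparison, in the same edgeR test Atf4, the stress factor whose translation rises when eIF2 is phosphorylated, changed by 2.03 ± 0.14 (adjusted p = 3.2e-07).

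**Figure D2:**
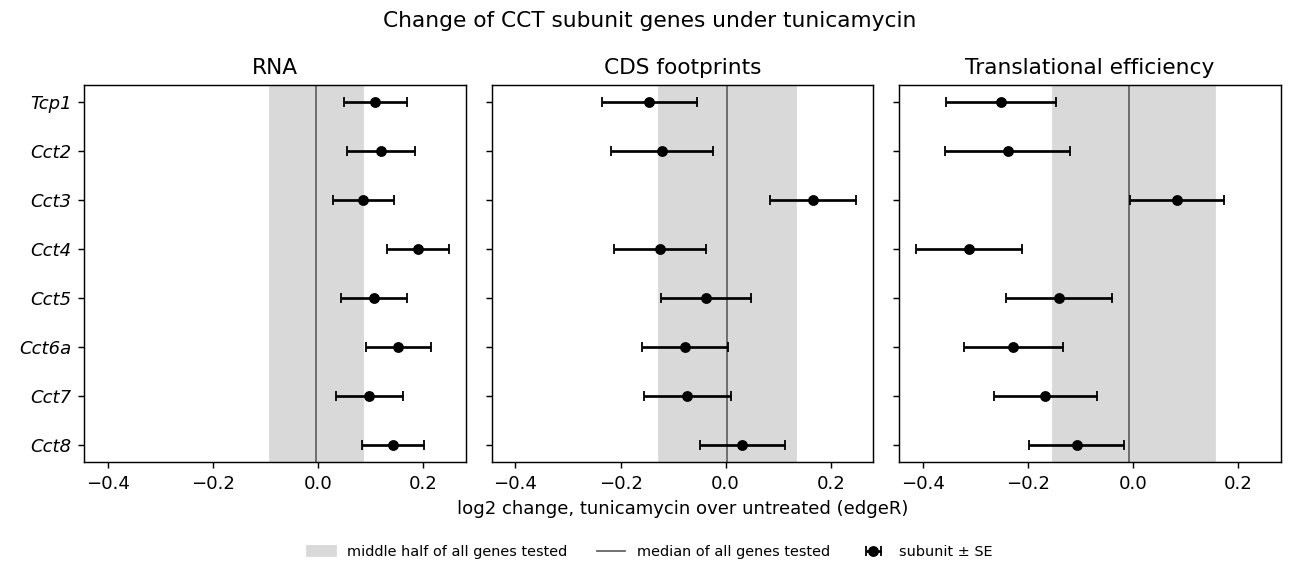
Log2 change of each subunit gene, tunicamycin over untreated, with its SE (edgeR), in RNA, coding footprints and translational efficiency. The grey band is the 25th to 75th percentile of all genes tested and the line their median. All 8 subunits lie above 0 in RNA, and 7 of 8 below 0 in translational efficiency, with Cct3 at 0.08.

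Over the 12 RNA and coding footprint libraries, each subunit was compared with the mean of the other 7 by the root mean square difference of log2 CPM centred within each assay. It was smallest for Cct5 (0.03) and largest for Cct3 (0.09), with Cct8 at 0.04, Cct6a, Cct7 and Cct4 at 0.05, Tcp1 at 0.06 and Cct2 at 0.08. Among all 8112 genes with at least 5 CPM in each assay, the median difference from the mean of the 8 members was 0.14 and the 5th percentile 0.07. The genes outside the complex with the smallest difference from that mean were Asns (asparagine synthetase, 0.02), Lap3 (leucine aminopeptidase, 0.03), Wdr33 (an mRNA polyadenylation factor, 0.03), Pwp2 (a ribosomal RNA processing factor, 0.03) and Anxa6 (annexin A6, 0.03). The order among these 5 rests on differences smaller than 0.01. The points share libraries and depth, and the values are a description. Genes from 5 CPM upward enter the comparison, so it is not matched to the read depth of the subunits.

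Footprints on the 5′ leader took a larger share of the reads of the subunit genes under tunicamycin, as they did across the table. Of all footprints in a library, leaders held 7.71%, 7.77% and 10.2% under tunicamycin, against 5.06%, 3.98% and 5.36% untreated. For the 8 genes together the leader share was 1.42%, 1.47% and 1.99% under tunicamycin, against 0.748%, 0.465% and 0.758% untreated. In 7 of the 8 genes, all but Cct6a, each tunicamycin library was above each untreated library. That held for 57.6% of all 6810 genes with at least 15 reads in the leader and in the coding sequence.

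The leader of Tcp1 held 4.26%, 3.76% and 5.91% of its footprints under tunicamycin, against 1.88%, 1.17% and 1.68% untreated. That of Cct4 held 3.30%, 3.80% and 4.08% under tunicamycin, against 2.10%, 1.28% and 2.38% untreated. That of Cct2 held 1.88%, 1.86% and 2.63% under tunicamycin, against 0.928%, 0.482% and 0.963% untreated. In all 3 genes, tunicamycin replicate 3 was the highest library and untreated replicate 2 the lowest, as for leaders in general. Cct7 held 2.08%, 2.31% and 3.13% under tunicamycin, against 0.945%, 0.815% and 1.22% untreated. Cct3 held 0.993%, 1.22% and 1.71% under tunicamycin, against 0.616%, 0.388% and 0.637% untreated. Both followed the same order of libraries.

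Leader reads of the other 3 genes were few. Cct5 had 13, 9 and 13 leader reads under tunicamycin, against 6, 4 and 6 untreated. Cct8 had 30, 34 and 37 under tunicamycin, against 26, 11 and 27 untreated. Cct6a had 10, 21 and 29 under tunicamycin, against 18, 10 and 19 untreated, with overlap in reads and in share (0.107%, 0.252% and 0.322% under tunicamycin, against 0.136%, 0.0805% and 0.153% untreated).

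The ratio of leader to coding footprints rose in 7 of the 8 subunits by edgeR's test, as against 64.4% of 4693 genes tested, whose median change was 0.90 on the log2 scale. Tcp1 changed by 1.60 ± 0.27 (SE, edgeR adjusted p = 0.000847), Cct5 by 1.57 ± 0.42, Cct2 by 1.47 ± 0.29 and Cct4 by 1.01 ± 0.27. Cct7 changed by 1.35 ± 0.29, Cct3 by 1.25 ± 0.30 and Cct8 by 1.08 ± 0.35, while Cct6a, at 0.85 ± 0.42, did not pass (edgeR adjusted p = 0.0815). Relative to the median of all genes the changes were 0.70 for Tcp1, 0.67 for Cct5, 0.57 for Cct2, 0.45 for Cct7, 0.35 for Cct3, 0.17 for Cct8, 0.11 for Cct4 and -0.05 for Cct6a. Cct8 lost its call without tunicamycin replicate 3 (adjusted p = 0.0513) or untreated replicate 2 (0.0541), and Cct6a gained one without tunicamycin replicate 1 (0.0191).

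When leaders and coding sequences were scaled separately, which removes the shift common to all leaders, the edgeR test passed 2 of the 8, Tcp1 (0.70, adjusted p = 0.00417) and Cct2 (0.56, adjusted p = 0.0331), as against 12% of the 4693 genes. This scaling was chosen after seeing the data. The call for Tcp1 ended without tunicamycin replicate 3 (adjusted p = 0.0527), the library with the highest leader share. That for Cct2 ended without any of the 3 tunicamycin libraries (adjusted p = 0.0731, 0.110 and 0.157 without replicates 1, 2 and 3) and without untreated replicate 2 (0.219). Mrpl18 overlaps the first 1459 nt of the Tcp1 span, and its part in the leader counts was not tested.

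**Figure D3:**
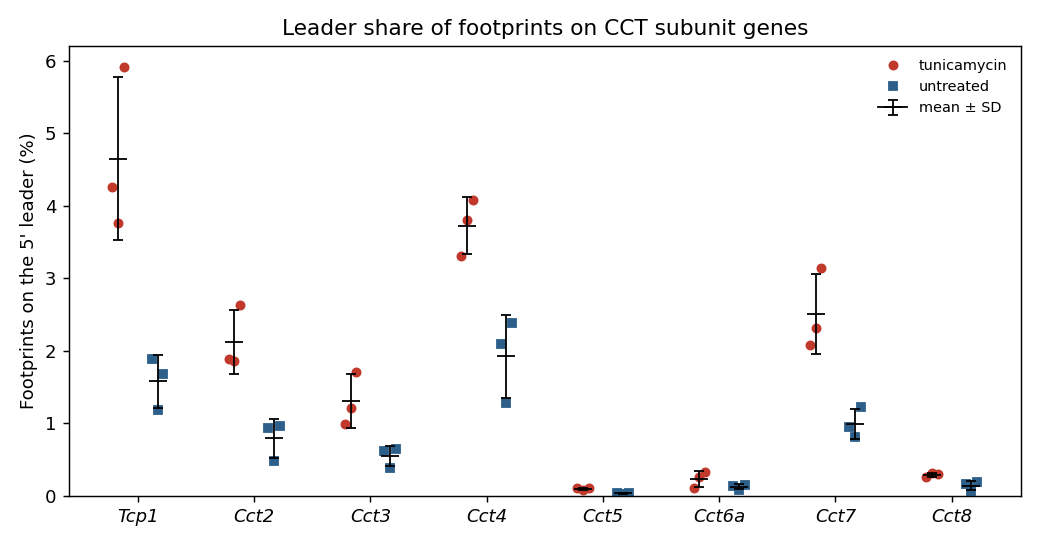
Share of each subunit gene's footprints that lay on its 5′ leader, in percent, with 3 tunicamycin libraries (red circles) left of 3 untreated libraries (blue squares) and the mean ± SD in black. The treatments do not overlap for any gene but Cct6a, and Cct5, Cct6a and Cct8 stay at or below 0.322% in every library.

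Footprints on the 3′ UTR, after the stop codon, were tested for 6 of the 8 subunits. Tcp1 was left out with 0 reads in every library, and Cct7 with at most 2. By edgeR 0 of the 6 passed, as against 0.447% of 2015 genes tested, and 0 had an unadjusted p under 0.05, as against 9.48% of all genes. Cct8 held 7.82%, 7.69% and 7.90% of its footprints on the 3′ UTR under tunicamycin, against 7.43%, 7.04% and 6.46% untreated, without overlap. How many of all genes separate in this share was not counted, so the separation cannot be weighed. The ratio of Cct8 to coding footprints did not pass (0.18 ± 0.16 SE, edgeR adjusted p = 0.785). Cct5 held 3.48%, 4.04% and 4.57% under tunicamycin, against 3.96%, 5.38% and 3.38% untreated, with overlap. Usp16 overlaps the Cct8 span at its 3′ end, and its part in that share was not tested.

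Harringtonine reads, meant to mark start sites, were spread over 48 positions that differed widely between the subunits in their place in the gene. All 3828 reads of Cct2 lay within 1000 nt of the RefSeq gene start, as did 76.8% of the reads of Tcp1, 74.8% of Cct6a, 73.7% of Cct4 and 55.9% of Cct7. In Cct3 it was 33.3% and in Cct5 12.2%, and in Cct8 none of 256 reads did, its nearest position being 7008 nt from the gene start. Introns count in these distances, and a position far from the gene start need not be far along the mRNA unless it nears the gene end. Some did, such as 10894 nt in Cct5 (span 11047 nt) and 11863 nt in Cct8 (span 12545 nt). Whether each kept position is a start site was not tested. The deposited lists keep a position only with 20 reads or more in 1 treatment, so the sums describe kept positions and not depth.

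Start codons could be read where a promoter sequence covered a position, and they are shown to place the positions. In the whole list, 257 of 1163 positions with 20 nt of sequence on each side (22.1%) had an ATG 12 or 13 nt downstream, and the next most frequent offset was 1 nt, with 47 positions. Capitals mark the ATG nearest to the position, and sequences are written 5′ to 3′ on the strand of the gene.
Cct5, chr15:31601690-31601719, reverse strand: ctagttcgtccaccATGgcgtccgtgggga
Cct6a, chr5:129787425-129787454, forward strand: gagctaggccagccATGgcggcggtaaaga
Cct3, chr3:88297222-88297249, forward strand: tgcgtcgtgccgccATGatgggccaccg
Cct7, chr6:85452108-85452137, forward strand: aagccgcttccaagATGatggtgagtgtct
The Cct6a positions were 1 nt before the A of its ATG and on it, and the first Cct5 position was 8 nt after the A. In Cct3 and Cct7 the ATG began 25 and 36 nt downstream of the position. None of these 5 positions had the offset of 12 or 13 nt. The sources used here do not state whether the deposited positions count from 0 or 1, so each of these distances may be off by 1 nt. The sequences of Cct3, Cct6a and Cct7 come from the RefSeq promoter windows of the neighbours Tsacc, Psph and Pradc1 in GRCm38.p6, read on the strand of the subunit gene.

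The largest single position was in Cct2, 85 nt from its gene start, with 428, 236 and 159 reads under tunicamycin and 263, 132 and 237 untreated. Its neighbouring pair at 131 and 132 nt, merged as a site, had 304, 284 and 312 reads under tunicamycin, against 223, 281 and 200 untreated. Every tunicamycin library was deeper, and divided by kept reads the pair overlapped between treatments, at 469, 508 and 528 CPM under tunicamycin against 426, 629 and 415 CPM untreated (edgeR 0.03 ± 0.25 SE). The first position overlapped as well. In Tcp1 the pair of adjacent positions from 254 nt had 155, 106 and 64 reads under tunicamycin, against 168, 89 and 113 untreated. In Cct6a the pair at its ATG had 100, 101 and 94 reads under tunicamycin, against 83, 99 and 73 untreated. In Cct4 the pair at 117 and 118 nt had 45, 87 and 68 reads under tunicamycin, against 50, 99 and 51 untreated. The Tcp1, Cct6a and Cct4 pairs overlapped between treatments.

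**Figure D4:**
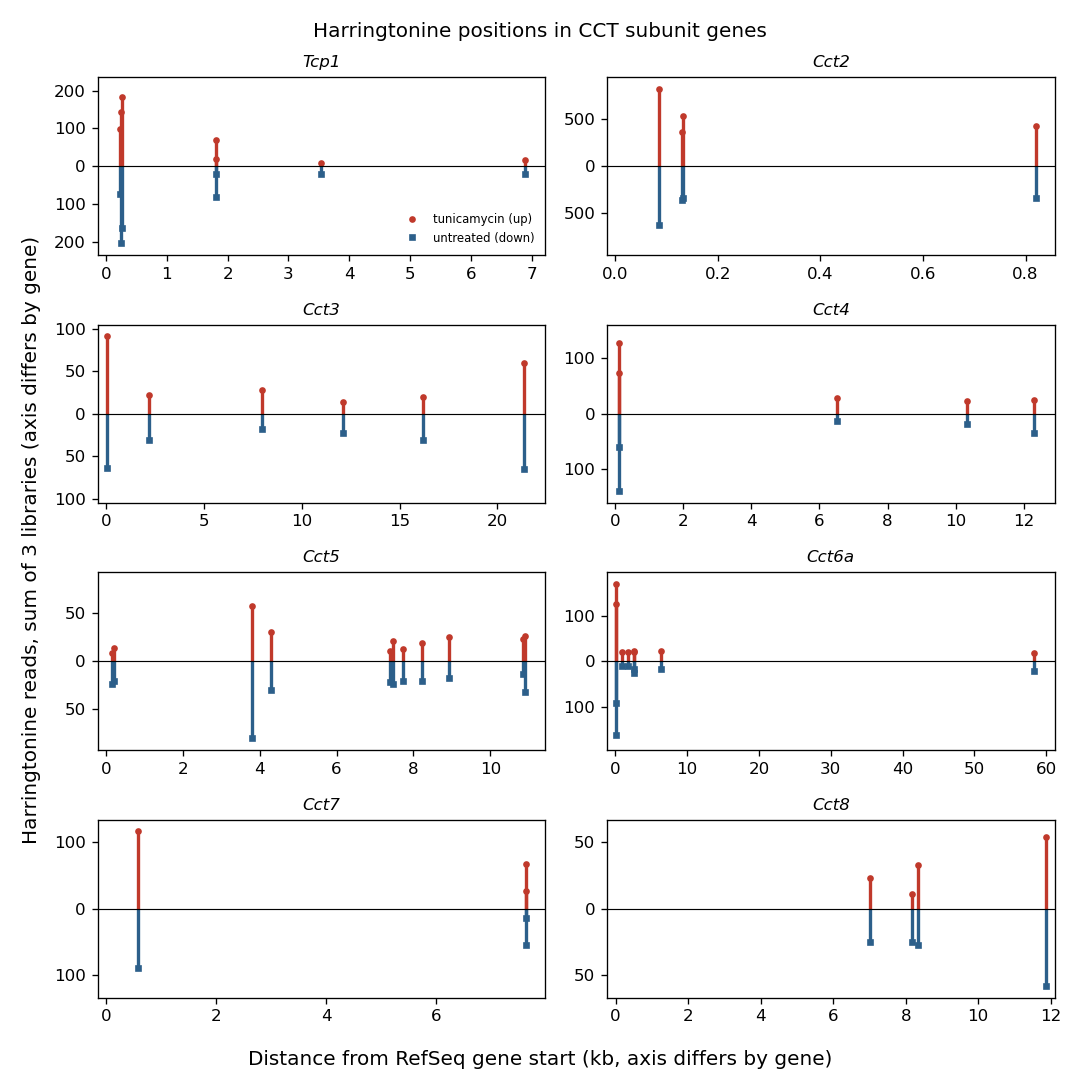
Harringtonine reads at each kept position of the 8 subunit genes, summed over 3 tunicamycin libraries (red, upward) and 3 untreated libraries (blue, downward), against the distance from the RefSeq gene start in kb (both axes differ by gene). The reads of Cct2 lie within 1 kb of the start, whereas the nearest position of Cct8 is 7.01 kb away.

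Summed per gene and divided by kept reads, harringtonine signal overlapped between treatments for 7 of the 8 subunits. Tcp1 alone was lower in every tunicamycin library, at 321, 322 and 252 CPM under tunicamycin against 428, 408 and 382 CPM untreated (edgeR -0.45 ± 0.22 SE, not passing). Of all 4613 genes, 4.16% were lower and 5.7% higher in this way. In reads, Cct5 had 76, 79 and 95 reads under tunicamycin, against 146, 91 and 71 untreated, and Tcp1 had 208, 180 and 149 under tunicamycin, against 224, 182 and 184 untreated. By edgeR 0 of the 8 passed, as against 0.0217% of 4613 genes tested. At an unadjusted p under 0.05 there was 1, Cct5 (-0.60 ± 0.28 SE, adjusted p = 0.998), as against 4.49% of all genes. The Cct5 sum holds positions kept through untreated reads alone, such as that at 149 nt (9 reads under tunicamycin and 24 untreated). It also holds positions kept through tunicamycin reads alone, such as that at 10849 nt (23 and 14). The keeping rule thus enters the gene sums, and the direction for Cct5 cannot be weighed apart from it. The median of the 8 was -0.29, beside 0.01 over all genes. The deposited positions merged into 42 sites in the subunit genes, of which 0 passed by edgeR, as against 0% of 7663 sites, and 3 had an unadjusted p under 0.05, as against 4.67% of all sites. Those 3 had few reads and lay below 0. Their summed reads were 8 under tunicamycin and 22 untreated in Tcp1, 9 and 24 in Cct5, and 11 and 25 in Cct8. A position was kept only with 20 reads or more in 1 treatment, so these were kept through their untreated reads alone. Their direction is thus partly set by that rule and cannot be weighed. The site at 3528 nt in Tcp1 had 4, 1 and 3 reads under tunicamycin, against 12, 7 and 3 untreated. That at 149 nt in Cct5, beside its ATG shown above, had 4, 2 and 3 reads under tunicamycin, against 11, 6 and 7 untreated. That at 8171 nt in Cct8 had 3, 5 and 3 reads under tunicamycin, against 11, 9 and 5 untreated. These reads are not divided by depth.

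Relative to RNA, the harringtonine values of all 8 subunits were below 0 on the log2 scale, from -0.73 ± 0.27 (SE) for Cct5 to -0.03 ± 0.29 for Cct7, with a median of -0.45 beside -0.01 over all genes. By edgeR 0 of the 8 passed, as against 0% of 4477 genes tested. At an unadjusted p under 0.05 there were 2, Tcp1 (-0.58 ± 0.20) and Cct5, as against 8.49% of all genes. The RNA libraries are those of the RNA comparison, in which the subunits were above 0. The harringtonine sums rest on the same kept positions, so the rule for keeping them enters these values as well.

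Other genes were counted from 5 lists around the folding pathway. They held prefoldin and prefoldin-like genes (9 tested), CCT co-factors, tubulin cofactors (5), CCT clients and other chaperones (13). The other chaperones were of the HSP60, HSP70 and HSP90 families and their partners. The prefoldin list includes the prefoldin-like genes Uri1, Uxt and Pdrg1. The co-factor list includes Cct6b, Dnajb13 and Pelo, whose link to CCT was not tested. In RNA, coding footprints and translational efficiency, 0 genes of these 5 lists rose and 0 fell by edgeR. At an unadjusted p under 0.05 there were 7 of 59 in RNA, 4 of 55 in coding footprints and 6 of 55 in translational efficiency, and DESeq2 passed 0 in each. These were 11.9%, 7.27% and 10.9% of the listed genes, at or below the 12.4%, 16.6% and 15.5% of all genes tested. In RNA the prefoldin list had a median log2 change of -0.06, with Pfdn6 at -0.14 ± 0.11 (SE). In coding footprints Pfdn4 had the smallest p of that list (0.34 ± 0.11, edgeR adjusted p = 0.118). Tubulin cofactors had medians of 0.01 in RNA and -0.07 in both coding footprints and translational efficiency, for example Tbcd at 0.17 ± 0.09 in footprints. Of the co-factor list, 6 genes were tested in RNA and 4 in footprints, with medians of 0.02 and 0.12. Txndc9, a phosducin-like binding partner of CCT, was at 0.23 ± 0.11 in footprints.

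The clients of CCT, among them actins, tubulins, G protein beta subunits and the cell cycle activators Cdc20 and Fzr1, had medians of -0.03 in RNA (26 tested) and -0.10 in coding footprints (24 tested). Gnb2, a G protein beta subunit, had the smallest p in footprints (-0.26 ± 0.08 SE, edgeR adjusted p = 0.110), and Tuba1c, an alpha tubulin, in RNA (-0.17 ± 0.06, adjusted p = 0.316). Other chaperones had a median of 0.13 in RNA and -0.16 in translational efficiency, beside 0.11 and -0.20 for the CCT subunits. Hspd1, the mitochondrial chaperonin, was at 0.21 ± 0.06 in RNA, and Hspa4, an HSP70 exchange factor, at 0.19 ± 0.06 in RNA and -0.26 ± 0.10 in translational efficiency. Hspe1, the co-chaperonin of Hspd1, was at 0.54 ± 0.18 in translational efficiency (edgeR adjusted p = 0.141).

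The leader to coding ratio rose by edgeR in 9 of 16 clients, 6 of 8 other chaperones and 3 of 4 tubulin cofactors tested. It rose in 2 of 5 genes tested from the prefoldin list (Pfdn2 and Pfdn6) and 2 of 2 from the co-factor list (Pdcl and Pelo). These rises stand again beside 64.4% of all genes, and the ratio fell in 0 of the listed genes. The beta tubulin gene Tubb5 rose by 2.11 ± 0.27 (SE), Tuba1c by 2.36 ± 0.38 and Hspa8, the constitutive HSP70, by 2.95 ± 0.30, all beyond the median of 0.90 over all genes. Atf4 fell by 1.38 ± 0.24 on the log2 scale in the same test (edgeR adjusted p = 0.000992).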

How the data were processed

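The authors deposited raw counts: cycloheximide footprint reads per 5′ UTR, CDS or 3′ UTR of a gene, RNA reads per gene, and harringtonine reads at single kept positions. STAR, HTSeq and edgeR, and the builds mm10 and GRCm38, are named per the submitters' processing notes, with no version or option stated in the sources used here. CPM were computed here from the deposited counts as reads over the library's RNA, CDS or kept harringtonine total, and leader shares as percent of a gene's counted footprints. Tests used edgeR 4.0.16 (R 4.3.3) on the deposited counts of all genes, with TMM scaling, filterByExpr (minimum count 10, minimum total 15), quasi-likelihood F tests and Benjamini-Hochberg adjustment (adjusted p under 0.05), and DESeq2 1.42.0 as an alternative. Harringtonine counts had no low-count filter. Translational efficiency and harringtonine against RNA were interactions of assay and treatment. Leader and 3′ UTR ratios were interactions of feature and treatment with the library as a term. Positions within 10 nt were merged into sites. Likeness used log2 CPM with a prior count of 2.

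The procedures were tested on simulated counts with known changes. Those changes were larger than the subunits showed in RNA, coding footprints or translational efficiency. How often changes of that smaller size would be found was not tested. Members and lists were chosen with earlier results of these data known. All 8 subunits are named, with up to 4 genes of a list with the smallest p and the 5 most alike genes; Atf4, Gp5, Apoa1, Slc4a1 and the sites with an unadjusted p under 0.05 were named after their values were seen. Coding lengths were not used here, so the planned shares per codon became shares of reads. Same-numbered RNA libraries correlated in their deviations from the group means (0.416, 0.313 and 0.192). Tunicamycin replicate 3 correlated nearly as well with untreated replicate 2 (0.190), so that last pair is not clear. The main tests left this pairing out, and the replicate block was an alternative. The labels do not say whether replicates were separate cultures, so the p-values reflect the spread among these libraries alone, which may be technical. Harringtonine columns are tied to a treatment and not to other libraries. Alternatives changed scaling, filter, tool, merging distance or block, or left out a library, and the separate scaling of leaders and coding sequences was chosen after seeing the data.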

Additional observations from a re-analysis of the deposited data

How the results depend on the processing

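Across the alternatives, 0 subunits passed in RNA, coding footprints, the 3′ UTR ratio and the harringtonine comparisons. The median RNA change of 0.11 ranged from 0.0893 without tunicamycin replicate 2 to 0.138 without tunicamycin replicate 3. With the replicate block 3 subunits passed in translational efficiency (edgeR adjusted p = 0.0314 for Tcp1, 0.0409 for Cct2 and 0.0302 for Cct4), as against 9.0% of all genes. The block gave 410 genes passing in RNA, beside 16 without it, and 885 in coding footprints, beside 239. Same-numbered coding footprint libraries correlated at 0.348, 0.0944 and 0.276, and each library correlated best with its own number. The correlation of the second pair was weak, so the labels and values leave that pair unclear. DESeq2 passed 1 subunit in translational efficiency, as against 4.38% of the genes it tested. Leaving out single libraries passed 0 to 1, as against 0.217% to 3.16% of all genes. Leader ratio calls were 6 to 8 without single libraries, as against 39% to 60.9% of all genes. They were 2 with separate scaling (12% of all genes) and 0 to 2 with both changes (3.31% to 11.1%). The following values turned sign, and none of them passed. Separate scaling put the leader ratio of Cct6a at -0.0376, and with single libraries left out too it was -0.230, -0.266, -0.0694 and -0.174 for Cct6a, -0.0145 and -0.0498 for Cct4 and -0.0645 for Cct8. Without single libraries, Cct8 coding footprints ranged from -0.00938 to 0.0494, and the 3′ UTR ratio from -0.212 to 0.138 for Cct5 and from -0.140 to 0.206 for Cct2. Harringtonine sums ranged from -0.237 to 0.191 for Cct2, -0.507 to 0.0253 for Cct4, -0.282 to 0.0543 for Cct6a and -0.169 to 0.279 for Cct7. Harringtonine against RNA ranged from -0.343 to 0.0751 for Cct2 and from -0.260 to 0.185 for Cct7. The cause of these moves was not tested. Leader reads of 4 to 37 per library limit Cct5, Cct6a and Cct8.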
